A study of Mus musculus with 14 samples.

Results

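The comparison described here is of ascending aorta from C57BL/6 mice given β-aminopropionitrile (BAPN), 4 libraries, with that of C57BL/6 mice given phosphate-buffered saline (PBS), 3 libraries, both taken at 6 weeks of modelling. These 7 libraries are part of a series of 14, in which the other 7 come from mice given BAPN together with an integrin αV inhibitor, Cilengitide or SB273005. Of the 32289 genes in the table, 12635 reached an FPKM of 1 (fragments per kilobase, scaled to library size) in at least 3 of the 7 libraries and were tested. The labels call all the harvested tissue aneurysm tissue, PBS included, and give no dose, route of PBS, age or sex, nor do they say whether a library came from 1 mouse or from several. Nor do they state that each replicate is its own animal. The p-values therefore reflect the spread among these libraries alone, which may be technical.

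BAPN blocks the lysyl oxidases, copper-dependent enzymes that cross-link elastin and collagen outside the cell. In growing mice a shortage of cross-links weakens the elastic layers of the ascending aorta, and dilatation, dissection and rupture can follow. The wall of this vessel is mostly smooth muscle between elastic sheets, lined by endothelium and wrapped in an adventitia of fibroblasts, resident macrophages, nerves and fat. In bulk tissue, fewer cells of a type and less RNA per cell cannot be told apart, and the same holds for more of either.

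Smooth muscle transcripts were abundant in all 7 libraries, with Acta2, smooth muscle α-actin, at 4020 to 6417 FPKM. Total counts ran from 50948918 to 72584877 per library. Several libraries carried transcripts of other tissues. PBS replicate 1 held B cell genes (Igkc, an antibody light chain, at 2638 FPKM against 2.91 to 20.9 in the other 6 libraries). Skeletal muscle actin, Acta1, was at 963 FPKM in PBS replicate 2 and 602 in BAPN replicate 3, against 13.5 to 139 elsewhere. The brown fat gene Ucp1 was at 196 FPKM in BAPN replicate 4, and the globin gene Hba-a1 was at 1708 FPKM in BAPN replicate 3. None of these parted the groups.

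A second set of transcripts did part the groups. H2-Ea encodes an MHC class II chain that the C57BL/6 strain is known to lack. It had 0 counts in every PBS library and 130, 109, 89 and 89 in BAPN replicates 1 to 4. With PBS set to a floor of 3 counts summed over its libraries, it was at least 104-fold higher in BAPN. Its presence coincided with the treatment, so within these 7 libraries H2-Ea and BAPN cannot be told apart. SB273005 replicates 1 to 3 also had 0 counts and SB273005 replicate 4 had 116, although all 4 had BAPN.

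Some kidney tubule and heart muscle transcripts also differed between the groups. Umod, uromodulin of the kidney's thick ascending limb, was at 9.45, 7.73 and 8.28 FPKM in PBS replicates 1 to 3 and at 19.8, 22.3, 23.1 and 25.8 in BAPN replicates 1 to 4. Myh7, a cardiac myosin heavy chain, was at 4.81, 5.08 and 4.51 FPKM in PBS and at 0.0329, 0.082, 0.11 and 0.26 in BAPN. Neither gene's groups overlapped. Cyp4a14, a fatty acid hydroxylase, was the gene with the smallest p (log2 3.05 ± 0.17 (SE), edgeR adjusted p = 0.00108), and in SB273005 replicates 1 to 3 it differed from PBS by log2 0.11. Myh6, the other cardiac myosin heavy chain, was lower in BAPN (log2 -3.34 ± 0.50, edgeR adjusted p = 0.0337), and differed from PBS by 0.59 in those same 3 libraries. Tnnc1, cardiac troponin C, fell by 2.57 ± 0.41, while Nppa, an atrial peptide, was at 0.232 to 0.413 FPKM in PBS and 0 to 0.557 in BAPN. Of the 10 tested genes of the kidney list, 8 lay above PBS and 2 below. In edgeR 3 rose (7 at unadjusted p under 0.05, 5 in DESeq2), and 7 had groups that did not overlap. The median was log2 0.50, and the list's mean level lay above PBS without overlap. Kap, a proximal tubule gene, went the other way, at 269, 241 and 221 FPKM in PBS and 159, 169, 199 and 217 in BAPN (log2 -0.38 ± 0.13, edgeR adjusted p = 0.222). Kap made up most of the list's summed FPKM, which was 256 to 311 in PBS and 212 to 284 in BAPN. Of 8 tested genes of the cardiomyocyte list, 5 lay below PBS and 3 above. Myh6 and Myh7 were the 2 that fell, and 3 of the 8 had groups that did not overlap. The median was log2 -0.47 (-0.84 without PBS replicate 1, -0.27 without PBS replicate 2). Summed cardiomyocyte genes were at 44.2 to 74 FPKM in PBS and 15.5 to 28.8 in BAPN. Much of that gap was Myh6, at 21.4, 26 and 23.5 FPKM in PBS and 0.736, 1.99, 2.22 and 4.34 in BAPN.

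A criterion set after the values were seen asked which of the genes that passed moved with H2-Ea inside the SB273005 group, that is, for which replicate 4 lay beyond replicates 1 to 3 in BAPN's direction by more than 0.5 of the BAPN difference, on the log2(FPKM + 0.1) scale. It took 21 of the 133 genes (15.8%), 17 higher and 4 lower in BAPN, beside 14.9% of all genes tested. Of tested genes with a log2 difference of 1 or more in size it took 14.3%. These shares are close, the criterion rests on replicate 4 alone, and H2-Ea meets it by construction. It therefore neither ties a gene to H2-Ea nor clears it. Kidney tubule and related metabolic genes made up most of those named among the 21 (Umod, Slc12a1, Aqp2, Slc13a1, Sult1d1, Cyp4a10, Gldc). Of the heart muscle genes, Myh7 met the criterion. Myh6 and Tnnc1 fell short of the cut of 0.5, but for both replicate 4 lay below replicates 1 to 3, in BAPN's direction. In SB273005 replicates 1 to 4 Myh6 was at 32.2, 24.2, 47 and 7.41 FPKM, and Tnnc1 at 7.05, 6.05, 12 and 2.56. Among the 21, Eif4ebp3, a translation repressor, had the largest fitted rise of those with counts in PBS (log2 3.68 ± 0.38). The genes described in the rest of the text are not among the 21 unless that is stated. Whether the tissue signals and the aneurysm genes share a source was not tested.

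**Figure D1:**
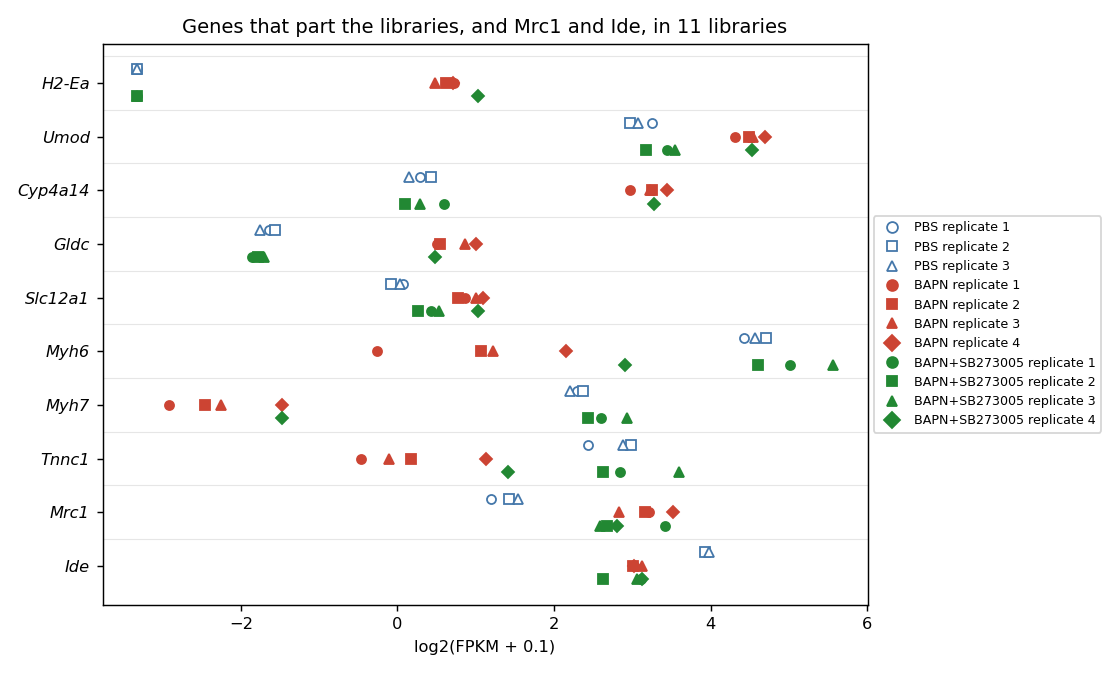
Level of genes that part the libraries, and of Mrc1 and Ide, as log2(FPKM + 0.1) in 3 PBS, 4 BAPN and 4 BAPN with SB273005 libraries, 1 point per library. For H2-Ea, Cyp4a14, Gldc and Myh7, SB273005 replicates 1 to 3 lie with PBS and replicate 4 with BAPN, whereas for Ide all 4 lie with BAPN.

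In the edgeR quasi-likelihood test, 133 of the 12635 genes passed an adjusted p of 0.05 (1.05% of genes tested): 95 were higher in BAPN (0.752%) and 38 lower (0.301%). Quantile normalisation split its calls 78 to 51. With no change in the median gene (log2 0.0021), 1876 genes (14.8%) had groups that did not overlap, 928 of them higher and 948 lower. At an unadjusted p under 0.05 there were 1939 genes (15.3% of those tested), the share beside which the counts of list members at that level should be read. The calls depended on single libraries. In all, 54, 8 and 16 genes passed without PBS replicate 1, 2 or 3, and 27, 27, 89 and 69 without BAPN replicate 1, 2, 3 or 4. Of the 133, these held 33, 8 and 12 in the PBS omissions and 24, 25, 63 and 56 in the BAPN omissions. All 133 kept their sign in every omission, and 7 stayed past the threshold in all of them. Cyp4a14, H2-Ea, Gldc, Umod, Cyp4a10 and Sult1d1 met the criterion for moving with H2-Ea, and Ide did not meet it. For many of the genes that passed, the text gives in how many of the 7 omissions they did so. A gene named without that count is not thereby stable.

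Genes of macrophages were higher in BAPN. Of 14 tested genes of macrophages and monocytes in general, all 14 lay above PBS, 5 rose and none fell, with a median log2 difference of 1.41. Of 11 genes typical of resident macrophages, 9 lay above PBS and 2 below, 5 rose and none fell (median 1.35). Those below were Cbr2 (log2 -0.45, without overlap) and Timd4 (-0.23, with overlap), and neither passed. Of 10 lipid-handling macrophage genes, 2 rose (Lgals3 and Gpnmb) and the median was 0.56, or 0.27 without BAPN replicate 4. Over all genes tested the median was 0.0021. Without PBS replicate 2, these 3 lists lost all their calls, while the medians were 1.36, 1.42 and 0.80. Leaving out PBS replicate 1, 2 or 3 left 1, 0 and 0 calls in the general list and 4, 0 and 2 in the resident list. Leaving out BAPN replicate 1, 2, 3 or 4 left 0, 1, 2 and 0 in the general list and 3, 2, 4 and 5 in the resident list.

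Mrc1, the mannose receptor CD206 of resident macrophages, was at 2.18, 2.58 and 2.81 FPKM in PBS and at 9.19, 8.86, 6.98 and 11.3 in BAPN. Every BAPN library was above every PBS library, and the difference was log2 1.85 ± 0.18 (edgeR adjusted p = 0.00832, passing in 6 of 7 omissions). In the SB273005 libraries without H2-Ea, which share the PBS controls, the resident list had a median of 0.63. There Mrc1 was at 1.65, Ms4a4a at 2.11, Ms4a6d at 2.96, Pf4 at 1.29, F13a1 at 0.61 and Cd163 at -0.11. Ms4a4a, a tetraspan membrane protein that macrophages carry beside Mrc1, was at 0.796, 0.819 and 1.03 FPKM in PBS and at 3.55, 3.4, 3.64 and 4.28 in BAPN (log2 2.07 ± 0.21, edgeR adjusted p = 0.0097, 6 of 7 omissions). Its relative Ms4a6d rose by 2.42 ± 0.28 (edgeR adjusted p = 0.0157, 4 of 7), though reads of these neighbouring paralogs may be split between them. Pf4, platelet factor 4, which resident macrophages also make, was at 6.69, 6.76 and 8.13 FPKM in PBS and at 22, 21.2, 15.5 and 19.5 in BAPN, again with no overlap (log2 1.44 ± 0.17, edgeR adjusted p = 0.0157, 3 of 7). F13a1, coagulation factor XIII A, rose by 1.35 ± 0.21 (edgeR adjusted p = 0.0406, 1 of 7), whereas Cd163, a haemoglobin scavenger receptor, was 1.56 ± 0.34 higher but did not pass (edgeR adjusted p = 0.0821).

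Among the general macrophage genes, Fcgr1 rose by log2 2.35 ± 0.38, Fcer1g, the shared Fc receptor signalling chain, by 1.65 ± 0.27, and Cd14, the lipopolysaccharide co-receptor, by 1.5 ± 0.23. They passed in 0, 2 and 1 of the 7 omissions. Fcgr1, the high-affinity IgG receptor, was at 0.39, 0.271 and 0.57 FPKM in PBS and at 3.31, 1.53, 1.47 and 2.11 in BAPN. Its BAPN levels varied by more than its PBS levels, with replicate 1 highest. Cd68, a lysosomal macrophage protein, was at 7.03, 3.41 and 4.19 FPKM in PBS and at 18.8, 9.28, 7.91 and 13.9 in BAPN. PBS replicate 1 was closest to the BAPN range, and the difference did not pass (log2 1.37 ± 0.35, edgeR adjusted p = 0.12). Csf1r, the colony-stimulating factor 1 receptor that marks the lineage, was at 6.39 to 7.67 FPKM in PBS and 9.37 to 23.6 in BAPN. Trem2, a lipid-sensing receptor that was too low to test, was at 0.315 to 0.365 FPKM in PBS and 0.804 to 4.14 in BAPN.

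Genes of phagocytic recognition were higher too. All 3 chains of complement C1q lay above PBS without overlap: C1qa rose by 1.46 ± 0.23, C1qc by 1.44 ± 0.24, and C1qb, at 1.6 ± 0.29, lay at an edgeR adjusted p of 0.05004, just short of passing. C1qa was at 36.8, 28.8 and 26.5 FPKM in PBS and at 110, 59.8, 64.5 and 102 in BAPN. C5ar1, the receptor for the C5a fragment, was at 0.676, 0.939 and 1.01 FPKM in PBS and at 5.15, 3.42, 2.73 and 5.06 in BAPN. Replicates 1 and 4 were the highest BAPN libraries for both. C1s1, the C1 protease, rose by 1.02 ± 0.16, and 4 of 14 complement genes passed in all (median 1.05). C1qa, C1qc, C5ar1 and C1s1 passed in 1, 0, 2 and 1 of 7 omissions, and none of them did without PBS replicate 2. Of 6 tested Fcγ receptor genes 3 rose, Fcgr1, Fcgr3 and Fcer1g (median 1.62), with Fcgr3 at 5.43, 3.92 and 4.96 FPKM in PBS and 25.5, 12.9, 13 and 25.4 in BAPN.

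All 11 tested CC chemokines and receptors lay above PBS, 7 of them without overlap. Of these 11, 4 rose and none fell, with a median of 2.17. Of 7 tested CXC chemokines and receptors 6 lay above PBS, 3 without overlap, and none passed in edgeR (3 at unadjusted p under 0.05, 3 in DESeq2). Ccl3, an inflammatory chemokine made by macrophages, was at 0.0467, 0.07 and 0.125 FPKM in PBS and at 1.03, 1, 0.764 and 1.18 in BAPN (log2 3.47 ± 0.34, edgeR adjusted p = 0.00845, 6 of 7 omissions). Ccl6, Ccl9 and Ccl12, which share sequence with neighbouring genes, rose by 1.97, 2.17 and 2.21 and passed in 1, 3 and 2 of 7 omissions. Ccl2, the main monocyte-recruiting chemokine, was at 1.12, 0.605 and 0.225 FPKM in PBS and at 2.49, 7.18, 1.93 and 2.54 in BAPN. Its groups did not overlap, but the spread within BAPN was wide and it did not pass (log2 2.44 ± 0.64, edgeR adjusted p = 0.132). Ccl7 (3.44 ± 0.68) and Ccl8 (2.86 ± 0.57) were in the same position. Il6, interleukin 6, was too low to test: 0 FPKM in each PBS library and 0.434, 0.875, 0.0655 and 0.179 in BAPN. Without PBS replicate 2, the list lost its 4 calls, and its median was 2.03.

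Other leukocytes were sparse. Of 10 neutrophil genes only S100a9, a calprotectin subunit, was tested, at 0.24, 0.211 and 0 FPKM in PBS and 0.79, 1.43, 1.41 and 1.67 in BAPN, and it did not pass (edgeR adjusted p = 0.105). The T cell gene Cd3d was at 0.236 to 1.74 FPKM in PBS and 0.105 to 0.411 in BAPN. All 3 tested T and NK cell genes lay below PBS (median -2.16, or -1.46 without PBS replicate 1), and none passed in edgeR (3 at unadjusted p under 0.05, 2 in DESeq2). The mast cell protease Cpa3 ranged from 0.184 to 0.41 FPKM in PBS and from 0.411 to 1.71 in BAPN. All 3 tested mast cell genes lay above PBS (median 1.65), 2 without overlap, and none passed in edgeR (3 at unadjusted p under 0.05, 2 in DESeq2). B cell genes were high in PBS replicate 1 alone. That library also raised the MHC class II gene H2-Ab1 in PBS, which was at 67.5, 5.17 and 5.85 FPKM in PBS replicates 1 to 3 and at 14.7 to 53.7 in BAPN. Interferon response genes had 1 of 13 pass (median 0.30), Ifi207, at 0.67, 0.643 and 0.681 FPKM in PBS and 2.71, 2.43, 2.33 and 4.54 in BAPN.

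Several less known myeloid genes were among the largest rises. Npl, which breaks down sialic acid, was at 0.314, 0.306 and 0.404 FPKM in PBS and at 1.66, 2.29, 1.27 and 1.61 in BAPN (log2 2.31 ± 0.26, edgeR adjusted p = 0.0151, 5 of 7 omissions). Fcrls, an Fc receptor-like scavenger, was at 2.31, 2.51 and 1.97 FPKM in PBS and at 20.8, 6.75, 7.96 and 9.34 in BAPN (log2 2.30 ± 0.40, edgeR adjusted p = 0.0482, 1 of 7). In both, every BAPN library lay above every PBS library.

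**Figure D2:**
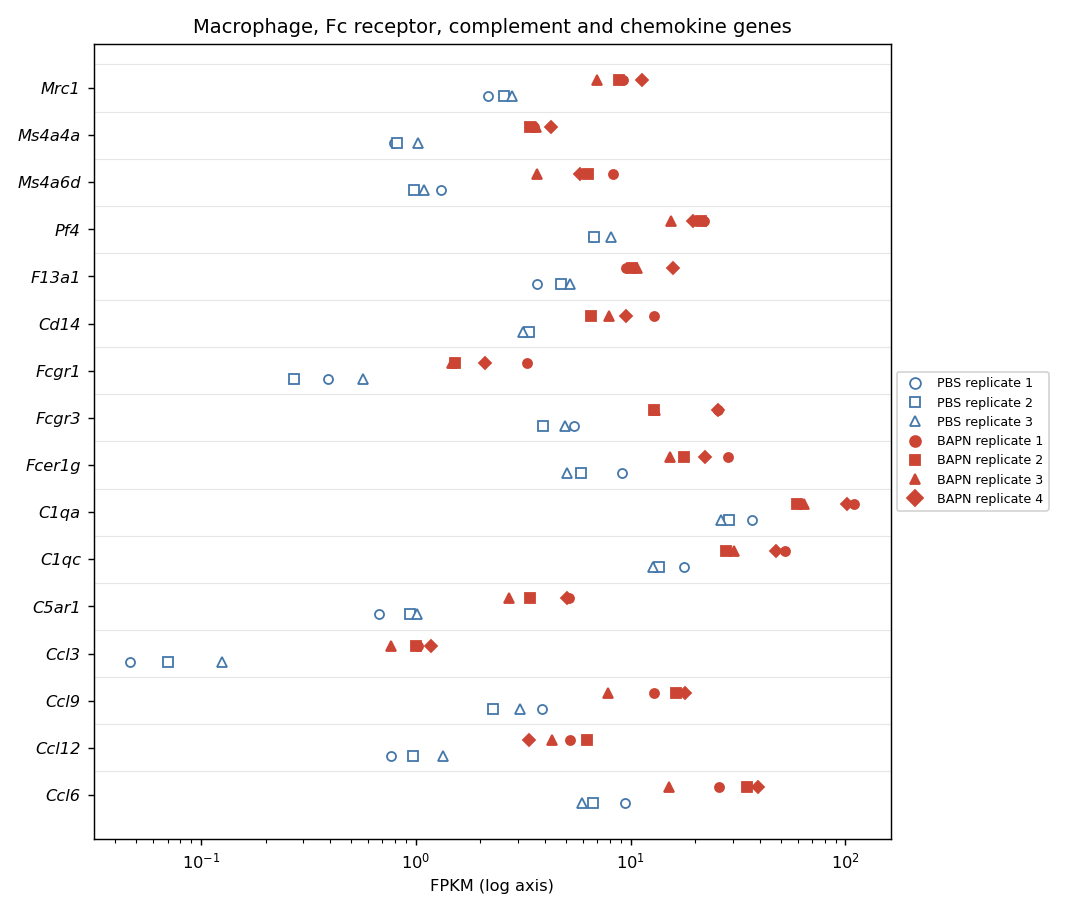
FPKM (log axis) of 16 macrophage, Fc receptor, complement and chemokine genes in each of the 3 PBS libraries (open) and 4 BAPN libraries (filled). In none of the genes do the groups overlap, and the distance between them is widest for Ccl3.

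Promoter sequence was examined for the genes that passed and did not meet the criterion for moving with H2-Ea. RefSeq windows running from 250 bases before to 50 after the start (GRCm38.p6) were present for 53 of the 78 higher and 23 of the 34 lower genes. The motifs GAGGAAGT, of the type bound by the myeloid factor PU.1, its core GAGGAA, the AP-1 motif TGACTCA, the nutrient-sensing element TGATGAAAC and GGGAAA were searched on both strands. GAGGAAGT contains the core. GAGGAAGT was found in 6 of the 53 higher genes (11.3%), C1qc, Cd300ld, F13a1, Pf4, Slco2b1 and Spp1, in none of the 23 lower genes, in 3.48% of tested genes with a window and in 3.2% of all 32851 windows. GAGGAA was found in 25 of 53 higher genes (47.2%) and 3 of 23 lower genes, beside 30.5% of tested genes and 28.3% of windows. TGACTCA was in 3 of 53 (5.66%) beside 4.44% of tested genes and 5.2% of windows, and GGGAAA was in 20 of 53 (37.7%) beside 29.8% and 25.2%. TGATGAAAC was in 1 of 53, Asns, beside 0.164% of tested genes and 0.247% of windows. A match describes letters in the window, and nothing was measured at these sites. Shown are 4 of the 6 higher genes with GAGGAAGT, and Asns, read 5′ to 3′ along the gene with the motif in capitals, on either strand. Pf4 lies at chr5:90772185-90772484 (+ strand), F13a1 at chr13:37049164-37049463 (- strand), C1qc at chr4:136892865-136893164 (- strand), Spp1 at chr5:104434861-104435160 (+ strand) and Asns at chr6:7693160-7693459 (- strand).
Pf4: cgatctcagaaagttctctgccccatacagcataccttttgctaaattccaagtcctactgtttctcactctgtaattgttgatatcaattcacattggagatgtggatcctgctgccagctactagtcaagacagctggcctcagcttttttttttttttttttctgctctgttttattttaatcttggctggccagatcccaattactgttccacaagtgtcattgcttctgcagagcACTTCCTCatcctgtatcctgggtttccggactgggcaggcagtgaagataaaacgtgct
F13a1: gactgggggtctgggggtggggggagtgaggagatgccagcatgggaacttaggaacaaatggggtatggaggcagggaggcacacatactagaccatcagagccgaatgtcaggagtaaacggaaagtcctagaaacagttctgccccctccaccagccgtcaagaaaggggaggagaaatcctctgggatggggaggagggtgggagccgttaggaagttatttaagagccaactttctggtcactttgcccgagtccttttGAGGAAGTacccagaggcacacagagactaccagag
C1qc: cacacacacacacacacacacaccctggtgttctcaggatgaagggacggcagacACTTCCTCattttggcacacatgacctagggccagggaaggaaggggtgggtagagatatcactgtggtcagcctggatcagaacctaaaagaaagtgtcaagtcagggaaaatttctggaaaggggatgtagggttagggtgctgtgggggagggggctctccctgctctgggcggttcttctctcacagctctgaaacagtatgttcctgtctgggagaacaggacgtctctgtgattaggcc
Spp1: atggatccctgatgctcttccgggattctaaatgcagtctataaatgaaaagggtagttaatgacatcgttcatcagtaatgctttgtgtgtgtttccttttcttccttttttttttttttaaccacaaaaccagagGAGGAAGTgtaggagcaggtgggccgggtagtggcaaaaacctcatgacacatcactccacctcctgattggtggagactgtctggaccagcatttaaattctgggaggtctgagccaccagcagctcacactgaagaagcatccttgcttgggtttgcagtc
Asns: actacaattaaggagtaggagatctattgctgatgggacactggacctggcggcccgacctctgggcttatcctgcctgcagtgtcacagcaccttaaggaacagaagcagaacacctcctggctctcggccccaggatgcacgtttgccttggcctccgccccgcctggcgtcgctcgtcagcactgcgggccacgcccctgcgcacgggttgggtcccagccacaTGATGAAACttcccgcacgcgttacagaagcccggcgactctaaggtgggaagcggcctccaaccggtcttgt
The motif begins 10 bases before the start in Pf4 and 195 before it in C1qc, both on the opposite strand, and 113 before it in Spp1 and 14 after it in F13a1, both on the gene's own strand. In Asns the motif begins 23 bases before the start.

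Few matrix genes passed, and BAPN replicate 1 stood above the other 3 BAPN libraries for many of them. Of 17 tested matricellular and adhesive glycoproteins, 15 lay above PBS and 3 rose, Comp, Spp1 and Tnc (median log2 0.71). Comp, cartilage oligomeric matrix protein, which binds collagen, was at 10.2, 11.1 and 11 FPKM in PBS and at 41.7, 29.1, 34.6 and 27.2 in BAPN. It was the most stable of the 3, with log2 1.63 ± 0.16, edgeR adjusted p = 0.00852, and passed in 5 of 7 omissions. Spp1, osteopontin, an RGD-bearing ligand of αV integrins, was at 8.76, 6.32 and 6.34 FPKM in PBS and at 121, 40.1, 41.3 and 38.3 in BAPN. The 3 lower BAPN libraries lay close together and far above PBS (log2 3.08 ± 0.46, edgeR adjusted p = 0.0337, 3 of 7). Tnc, tenascin C, rose by 1.21 ± 0.22 (edgeR adjusted p = 0.0496, 1 of 7). Fn1, fibronectin, was 0.99 ± 0.19 higher and did not pass (edgeR adjusted p = 0.0617), and Thbs1, thrombospondin 1, reached 143 FPKM in BAPN replicate 1 against 20.8 to 43.1 in the other BAPN libraries and 5.89 to 10.3 in PBS.

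Of the 5 lysyl oxidases, the enzymes that BAPN inhibits, 1 rose. All 9 tested genes of the lysyl oxidase and cross-linking list lay above PBS (median 0.38), and the 1 that passed was Loxl4, at 1.26, 1.48 and 1.16 FPKM in PBS and 3.14, 2.65, 2.07 and 2.9 in BAPN (log2 1.05 ± 0.19, edgeR adjusted p = 0.0495, 1 of 7 omissions). Lox, the main lysyl oxidase, was at 45.7, 42.8 and 69.3 FPKM in PBS and at 258, 115, 105 and 93 in BAPN. Its groups did not overlap, and the difference of 1.44 ± 0.38 did not pass (edgeR adjusted p = 0.131). Loxl2 (0.76 ± 0.16, edgeR adjusted p = 0.0741), Loxl3 (0.38 ± 0.12) and Loxl1 (0.30 ± 0.15) did not pass either. The 95% interval for Loxl1 ran from -0.05 to 0.64.

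Elastin and the listed collagens gave no call in edgeR. Eln was at 1146, 1130 and 1017 FPKM in PBS and at 3037, 1342, 1373 and 1237 in BAPN, and BAPN replicate 1 stood far above the other 6 libraries. No gene of the elastic fibre list (16 tested, 5 at unadjusted p under 0.05, 4 in DESeq2) passed in edgeR, and the median of 0.30 was 0.19 without BAPN replicate 1. Fbn1, fibrillin 1, was at 27.9, 28 and 34.7 FPKM in PBS and at 71.9, 39.6, 42.3 and 54.7 in BAPN (log2 0.79 ± 0.21, edgeR adjusted p = 0.134). None of the 7 fibrillar collagens passed in edgeR (5 at unadjusted p under 0.05, 4 in DESeq2), with Col1a1 at 365, 314 and 345 FPKM in PBS and 1024, 420, 466 and 536 in BAPN. Their median was 0.57, and 0.25 without BAPN replicate 1. Proteoglycans had a median of 0.47, or 0.20 without BAPN replicate 1 and 0.29 without PBS replicate 1, with none of 13 passing in edgeR (6 at unadjusted p under 0.05, 4 in DESeq2), among them Fmod, fibromodulin, at 158 FPKM in BAPN replicate 1 and 64.8 to 74.1 in the others against 24.1 to 36.4 in PBS. For basement membrane genes the median was 0.07 (-0.01 when PBS replicate 1 was left out, 0.21 when PBS replicate 3 was), with overlapping levels and none of 15 passing in edgeR (4 at unadjusted p under 0.05, 2 in DESeq2). Of these, Col4a6 (log2 -0.39) and Lama4 (-0.40) were lower without overlap, and Nid1, nidogen 1, was higher (0.69). Pcolce, an enhancer of procollagen processing, rose by 0.91 ± 0.16 (edgeR adjusted p = 0.0497, 0 of 7), and Fbln7, fibulin 7, by 1.23 ± 0.20 (edgeR adjusted p = 0.0418, 0 of 7).

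Timp1, an inhibitor of matrix metalloproteinases, was the 1 gene to pass among 10 TIMP and ADAMTS genes. It was at 20.1, 20.6 and 20.8 FPKM in PBS and at 122, 95.3, 54.9 and 44.6 in BAPN (log2 1.95 ± 0.34, edgeR adjusted p = 0.0482, 1 of 7 omissions). The PBS values were nearly equal, and the BAPN values were spread widely. No metalloproteinase of 9 passed in edgeR (4 at unadjusted p under 0.05, 2 in DESeq2). Mmp9, gelatinase B, was at 1.71, 1.38 and 1.34 FPKM in PBS and 0.614, 1.07, 0.824 and 1.82 in BAPN, and the groups overlapped (log2 -0.43 ± 0.35, edgeR adjusted p = 0.62). Mmp3, stromelysin 1, was 1.93 ± 0.42 higher (edgeR adjusted p = 0.0841). A list of 12 genes, cathepsins, legumain and the cathepsin inhibitor cystatin C (Cst3), lay above PBS in every member, with a median of 0.30, or 0.16 without BAPN replicate 1. None of the 12 passed in edgeR (4, Cst3 among them, at unadjusted p under 0.05, 3 in DESeq2).

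**Figure D3:**
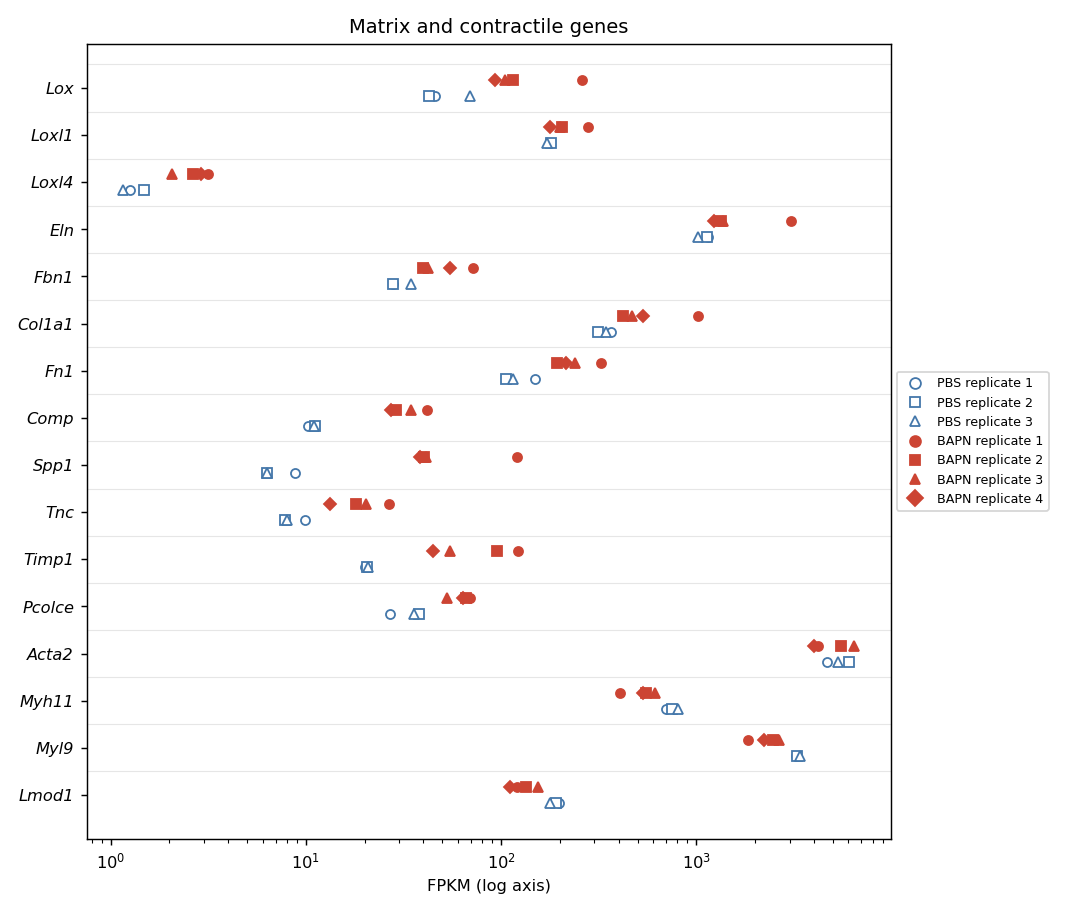
FPKM (log axis) of 12 matrix genes and 4 contractile genes in each of the 3 PBS libraries (open) and 4 BAPN libraries (filled). BAPN replicate 1 is the highest library for all the matrix genes shown, and the groups overlap for Acta2 and Loxl1 among the 16 genes.

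Signalling genes gave 1 call. Of 18 tested genes of the TGF-β pathway 15 lay above PBS, the median was 0.18 (0.12 without BAPN replicate 1), and none passed in edgeR (5 at unadjusted p under 0.05, 1 in DESeq2). Tgfb1 itself was at 15.8, 10.7 and 9.94 FPKM in PBS and 14.8, 11.7, 12.6 and 12 in BAPN, with overlapping groups (log2 0.09 ± 0.15, 95% interval -0.26 to 0.44, edgeR adjusted p = 0.836). Of 13 Notch pathway genes, 1 rose, Hes1, a transcriptional repressor, at 8.52, 7.01 and 7.38 FPKM in PBS and 13, 13.9, 11.4 and 14.2 in BAPN (log2 0.79 ± 0.10, edgeR adjusted p = 0.0224, 3 of 7 omissions). Its relative Heyl, a smooth muscle Notch target, was at 79.2, 85.4 and 57.4 FPKM in PBS and at 36.1, 33.8, 40.9 and 47.5 in BAPN and did not pass (edgeR adjusted p = 0.0605). The integrins that the inhibitors of the series address gave no call: Itgav was at 8.7, 7.67 and 9.9 FPKM in PBS and 10.8, 9.73, 9.69 and 9.58 in BAPN (log2 0.19 ± 0.10, interval -0.03 to 0.42), and Itgb3 was lower by an amount that did not pass (-0.40 ± 0.11, edgeR adjusted p = 0.156). None of 12 integrin α or 6 β chains passed in edgeR (4 and 1 at unadjusted p under 0.05, 3 and 1 in DESeq2).

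Contractile smooth muscle genes lay below PBS as a group by a small amount. All 17 tested were below, the median was -0.29 (-0.18 without PBS replicate 2), none passed in edgeR (4 at unadjusted p under 0.05, 4 in DESeq2), and the list's mean level overlapped between groups. Myh11, smooth muscle myosin heavy chain, was at 701, 749 and 809 FPKM in PBS and at 406, 555, 615 and 536 in BAPN (log2 -0.50 ± 0.16, edgeR adjusted p = 0.198). All its BAPN values were below its PBS values. Lmod1, leiomodin 1, and Myl9, the regulatory light chain, were 0.52 lower each, without overlap and without passing. Acta2 did overlap (log2 -0.08 ± 0.21, 95% interval -0.56 to 0.40, edgeR adjusted p = 0.904). PBS replicate 1 was the lowest PBS library for the list, and it also held the B cell transcripts.

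Of 10 tested regulators of smooth muscle identity, 6 lay below PBS and 4 above, and the list's mean level overlapped between groups. The median was -0.19, or -0.28 without PBS replicate 1 and -0.01 without PBS replicate 3. In edgeR 1 passed (3 at unadjusted p under 0.05, 3 in DESeq2). The gene that fell was Prdm6, a repressor restricted to smooth muscle. It was at 24.5, 22.4 and 24.2 FPKM in PBS and at 14.5, 15.3, 16.7 and 13.6 in BAPN (log2 -0.65 ± 0.09, edgeR adjusted p = 0.0322, 2 of 7 omissions). Gata6, a transcription factor of the outflow tract, was at 15.8, 14.3 and 14.6 FPKM in PBS and at 11.6, 11.3, 12.1 and 11.9 in BAPN and did not pass (edgeR adjusted p = 0.079). In both genes the BAPN libraries lay below every PBS library. Adra1d, the α1D-adrenergic receptor, ranged widely in PBS (51.7, 37.1 and 23.4 FPKM) and was at 13.7 to 18 in BAPN.

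Fibroblast and endothelial lists gave no call. All 12 adventitial fibroblast genes lay above PBS with none passing in edgeR (7 at unadjusted p under 0.05, 4 in DESeq2), and the median of 0.57 was 0.37 without PBS replicate 1, the lowest library of the list. Dpt, dermatopontin, was at 114, 161 and 170 FPKM in PBS and 342, 227, 222 and 230 in BAPN. Thy1, a surface protein of fibroblasts, rose from 7.37 ± 1.30 (SD, n = 3) to 19.2 ± 4.50 FPKM (n = 4) (log2 1.38 ± 0.20, edgeR adjusted p = 0.0322, 2 of 7 omissions). Endothelial genes had a median of 0.23, with overlapping levels and none of 13 passing in edgeR (3 at unadjusted p under 0.05, 1 in DESeq2). The median was -0.03 without BAPN replicate 4 and 0.42 without PBS replicate 2. Esm1, an endothelial proteoglycan, rose: it was at 0.641, 0.603 and 0.752 FPKM in PBS and at 2.65, 2.67, 3.55 and 2.33 in BAPN (log2 2.08 ± 0.22, edgeR adjusted p = 0.0111, 5 of 7). Schwann cell genes had a median of 0.02 and overlapped, with none of 7 passing in edgeR (0 at unadjusted p under 0.05, 0 in DESeq2).

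**Figure D4:**
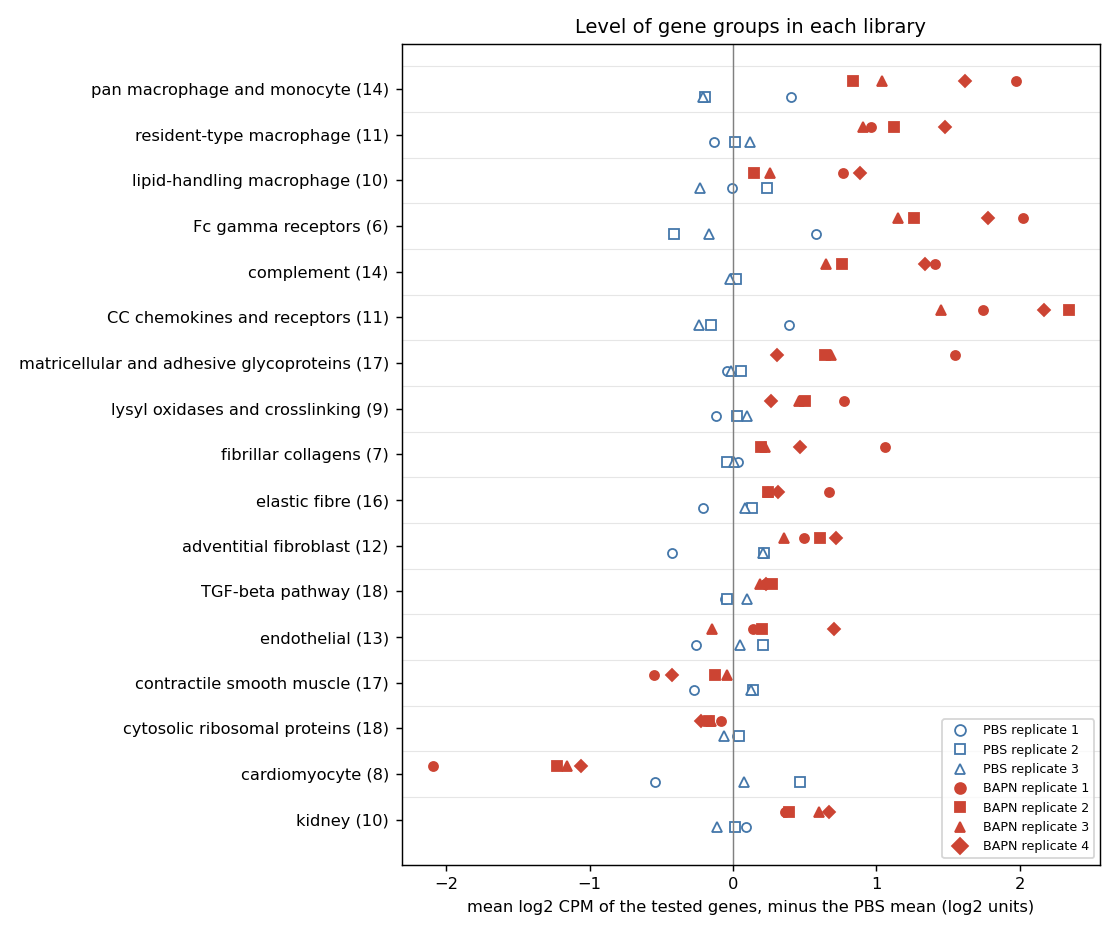
Mean log2 CPM of the tested genes of 17 lists in each library, minus its PBS mean, with the number of genes in brackets, for 3 PBS libraries (open) and 4 BAPN libraries (filled). The general macrophage, Fc gamma receptor and CC chemokine lists reach furthest to the right for BAPN, and contractile, endothelial and lipid-handling macrophage levels overlap with PBS.

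Among the genes that fell, Ide stood out for its stability. Ide, insulin-degrading enzyme, a zinc protease that cleaves insulin and amyloid β, lies on chromosome 19 (37268743 to 37330613, minus strand, mm10). It was at 15.1, 15.1 and 15.6 FPKM in PBS and at 7.99, 7.91, 8.64 and 8 in BAPN. The groups were far apart and each was narrow (log2 -0.90 ± 0.08, edgeR adjusted p = 0.0069, past the threshold in all 7 omissions), and in the SB273005 libraries without H2-Ea the value against the same PBS was -0.95. Fgfbp3, a growth factor binding protein gene, lies close by on the same chromosome (36917550 to 36919615, minus strand). Its levels were 2.67, 1.75 and 2.56 FPKM in PBS and 1.48, 1.17, 1.17 and 1.46 in BAPN, without overlap. This fall of log2 -0.80 ± 0.20 was short of the threshold (edgeR adjusted p = 0.12). In the SB273005 libraries without H2-Ea, Fgfbp3 was at -0.78 against the same PBS. Whether the lower levels of Ide and Fgfbp3 share a source was not tested.

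Other genes that fell were of mixed kind. Osr1, a transcription factor of connective tissue, was at 116, 108 and 95.1 FPKM in PBS and at 48, 63, 65.6 and 43.7 in BAPN (log2 -0.94 ± 0.17, edgeR adjusted p = 0.0495, 1 of 7 omissions). Tsc22d1, a TGF-β-induced leucine zipper protein, was at 56.9, 47.9 and 47.4 FPKM in PBS and 24.7, 28.4, 30.5 and 34.2 in BAPN. Hyal1, a hyaluronidase, was at 22.1, 19.7 and 21.4 FPKM in PBS and 9.68, 10.2, 12.9 and 13.9 in BAPN. In each of these the BAPN libraries lay below all PBS libraries. Angptl2, an angiopoietin-like secreted protein, fell by 0.78 ± 0.12, Adam11 by 0.74 ± 0.10, and Foxo6, a FOXO transcription factor, by 1.63 ± 0.26. The 6 genes just named passed in 0 or 1 of the 7 omissions each. The histone gene H3c14 was at 2.52, 1.25 and 2.37 FPKM in PBS and 0.0525 to 0.299 in BAPN (log2 -3.60 ± 0.46, edgeR adjusted p = 0.0228, 3 of 7). Nrep, a neuronal regeneration-related protein, Tmem26, Cilp2 and Mpp2 fell by 1.23, 1.14, 1.01 and 0.94, and each passed in 0 or 1 of 7. Ndufs6b (-2.37) and the amino acid transporter Slc7a13 (-1.19) are among the 21 genes that met the criterion for moving with H2-Ea.

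**Figure D5:**
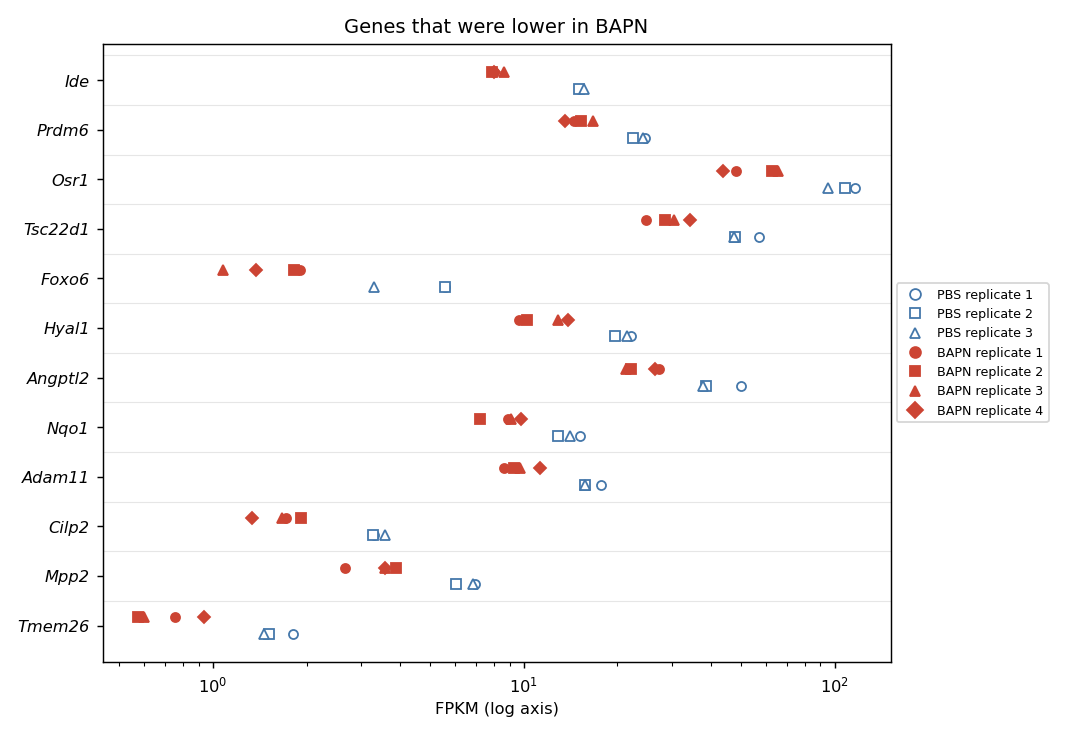
FPKM (log axis) of 12 genes that were lower in BAPN, in each of the 3 PBS libraries (open) and 4 BAPN libraries (filled). The groups do not overlap in any of them, and the points lie closest together within groups for Ide.

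Metabolic and stress genes gave single calls. Gpx3, an extracellular glutathione peroxidase, was at 209, 257 and 209 FPKM in PBS and at 461, 418, 453 and 543 in BAPN (log2 1.06 ± 0.14, edgeR adjusted p = 0.0243, 2 of 7 omissions), while Nqo1, a quinone reductase, fell by 0.68 ± 0.12 (edgeR adjusted p = 0.0495, 0 of 7). They were the calls among 16 antioxidant and NADPH oxidase genes. Asns, asparagine synthetase, a target of the amino acid response factor ATF4, was at 1.64, 1.4 and 1.34 FPKM in PBS and 3.39, 3.22, 2.96 and 3.62 in BAPN (log2 1.18 ± 0.15, edgeR adjusted p = 0.0206, 3 of 7). Ndrg1, a stress-responsive gene, was at 14.5, 13.8 and 14.3 FPKM in PBS and at 25.6, 25, 23.2 and 23.8 in BAPN. Like Ide, it had narrow groups (log2 0.79 ± 0.07, edgeR adjusted p = 0.00832, 6 of 7 omissions). Asns was 1 of 13 stress genes that passed, and none of 14 hypoxia and glycolysis genes did in edgeR (2 at unadjusted p under 0.05, 1 in DESeq2). Pbk, a mitotic kinase, rose by 2.44 ± 0.30 (edgeR adjusted p = 0.0186, 3 of 7). Ccnd1, cyclin D1, and E2f1, a cell cycle transcription factor, rose by 0.83 ± 0.15 and 0.84 ± 0.15 without overlap. Their edgeR adjusted p was 0.0496 and 0.0482, and each passed in 0 of 7 omissions. Pbk, Ccnd1 and E2f1 lie outside the cell cycle list. No gene of the 13 in the cell cycle list passed in edgeR (3 at unadjusted p under 0.05, 2 in DESeq2), and 6 passed without PBS replicate 1, the PBS library with lymphoid transcripts, where the median was 2.43 instead of 0.98. Without PBS replicate 3 it was 0.59.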

How the data were processed

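Per the labels' protocols, total RNA from ascending aorta was isolated with Trizol and cDNA was made by SuperScript II. The submitters' processing notes name HISAT2 2.2.1, StringTie 2.1.6 and the mm10 build. Annotation release, read filters and strandedness: not given in the sources used here. Overlapping genes, antisense genes and paralogs such as the Ms4a, Ccl, Ifi20, Cyp4a and Fcgr genes are therefore uncertain. The deposited table gives an FPKM, the authors' fragments per kilobase scaled to library size, and an estimated count per gene and library. The deposited estimated counts are whole numbers, so no rounding was needed, but they derive from StringTie coverage, which makes a count model approximate. Total counts were 50948918 to 72584877 per library. Replicates differed by more than sampling noise in all 9 pairs within groups (chi-square per degree of freedom 91.83 or more). That spread cannot show whether each library is its own animal. Each library was counted as 1 sample. A few genes are not reported here.

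The 3 PBS and 4 BAPN libraries were compared with edgeR 4.0.16 in R 4.3.3 (quasi-likelihood, TMM, Benjamini-Hochberg adjustment, threshold 0.05) on genes that reached an FPKM of 1 in 3 or more of these libraries. Differences are log2 BAPN minus PBS with SE. The SE was worked back from the F statistic and is approximate, as are the 95% intervals. Levels are deposited FPKM. The list levels use log2 CPM with a prior count of 2. Values for SB273005 replicates 1 to 3 come from a fit over all 14 libraries and share the PBS samples. Alternatives were that fit, DESeq2 1.42.0 and its size factors, limma 3.58.1 on log2 FPKM with a pseudocount of 1 or 0.1, quantile normalisation, FPKM rescaled to a common total, no or a stricter filter (5 FPKM), robust fitting, a replicate block, H2-Ea detection as a term, and each library left out. The pipeline was tested on simulated data.

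The members and the 56 gene lists were chosen with earlier results of these data known, so lists are described by counts and medians, with no test. Genes are named by rule: target and disease genes, up to 12 of the largest passing changes each way without overlap or predicted models, up to 8 passing members of each list filled to 4 by smallest p, and the first 4 markers of each cell type. Chosen after their values were seen were Adam11, Angptl2, Ccl7, Ccl8, Ccnd1, Cd300ld, Cyp4a10, E2f1, Esm1, Fbln7, Fgfbp3, Hyal1, Ide, Ndrg1, Pcolce, Slco2b1, Sult1d1, Thy1 and Tsc22d1, the motifs, and the criterion for moving with H2-Ea.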

Additional observations from a re-analysis of the deposited data

Results flagged for a closer look

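Within the 4 BAPN libraries, 214 genes and lists were examined for 1 library far from the rest, by Dixon's ratio at its 95% level, and 30 had one. Chance marks about 1 in 20 such groups. BAPN replicate 1 was the library in 21 of them and was highest in matrix genes: Lox at 258 FPKM, Eln at 3037, Col3a1 at 978, Col5a2 at 118, Spp1 at 121, Fmod at 158, Lum at 355, Mmp2 at 240, Ctsk at 75.5, Dpt at 342 and Cthrc1 at 92.5. It was also highest in Itgav (10.8 FPKM), Mrtfb (2.74), Cx3cl1 (16.7), E2f1 (2.74) and Trem2 (4.14). Its mean list levels, in log2 units above the PBS mean, stood at 0.667 for elastic fibre, 1.22 for other collagens and 0.531 for integrin alpha chains, and below it at -2.09 for cardiomyocyte and -0.394 for circadian clock genes.

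BAPN replicate 2 was highest in Ccl2 (7.18 FPKM) and Ccl7 (20). BAPN replicate 3 was highest in the skeletal muscle genes Acta1 (602 FPKM) and Myh1 (38.9), in the liver gene Alb (22.9) and in Ide (8.64). BAPN replicate 4 was highest in Ccl8 (27.3 FPKM), Ifi207 (4.54) and Ucp1 (196).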

How the results depend on the processing

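Against 133 genes in the main comparison, 52 passed in a fit over all 14 libraries, 784 in DESeq2, 39 with no filter on FPKM and 4 with H2-Ea detection as a term. These included 38, 133, 36 and 0 of the 133, in that order. Leaving out each library in turn gave 8 to 89. The other scalings, limma settings, the stricter filter and the robust fit gave 89 to 148. With a replicate block, edgeR called 0 genes (1749 at unadjusted p under 0.05). Deviations of same-numbered libraries from their group means correlated at 0.1106, -0.03551 and -0.1616. For libraries of different number the range was -0.2041 to 0.1954. So few pairs cannot decide whether the replicate numbers mark a pairing.

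A few differences changed sign. Tgfb1 ran from -0.04 (without PBS replicate 3) to 0.27 (without PBS replicate 1). Acta2 ran from -0.23 (without BAPN replicate 3) to 0.06 (without PBS replicate 2), with 0.01 without BAPN replicate 4, 0.08 with quantile normalisation and 0.01 with the replicate block. With H2-Ea detection as a term, Itgav was at -0.13, H2-Ea at -0.46, Cyp4a10 at -0.11, Sult1d1 at -0.08, Ndufs6b at 0.39, Aqp2 at -0.03 and Kap at 0.17. The libraries that set this term also set the criterion for moving with H2-Ea. For H2-Ea, Cyp4a10, Sult1d1, Ndufs6b and Aqp2, which met that criterion, the shift was therefore fixed in advance. For the counts and the signs above, the cause was not tested. Genes under about 1 FPKM, such as Ccl3 and Il6, rest on few counts.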

Other observations

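Of 15 tested PDGF and IGF genes 13 lay above PBS, with a median of 0.37 (0.21 without PBS replicate 1) and none passing in edgeR (7 at unadjusted p under 0.05, 5 in DESeq2). Igfbp2, an IGF binding protein, was at 60.5, 72.1 and 63.8 FPKM in PBS and at 184, 212, 200 and 86.1 in BAPN (log2 1.39 ± 0.30, edgeR adjusted p = 0.0821). Pdgfb, a mitogen for smooth muscle cells, was at 4.22, 4.81 and 3.31 FPKM in PBS and at 9.38, 9.86, 6 and 7.43 in BAPN. In both genes all BAPN libraries lay above all PBS libraries.

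All 18 cytosolic ribosomal protein genes lay below PBS, 12 of them without overlap, by a median of -0.16, and none passed in edgeR (5 at unadjusted p under 0.05, 2 in DESeq2). All 13 mitochondrially encoded genes lay below PBS by a median of -0.21, which was -0.05 with quantile normalisation and ran from -0.39 (without BAPN replicate 4) to 0.00229 (without PBS replicate 2) over the omissions. Nr1d1, a circadian repressor, was at 29.3, 20 and 32.9 FPKM in PBS and at 91.4, 64.1, 42.5 and 129 in BAPN and did not pass (edgeR adjusted p = 0.0914).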
